A study of Mus musculus with 6 samples.

Results

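The C/EBP family was followed through H3K27ac maps of mouse alveolar macrophages (AMs) as 5 genes, Cebpa, Cebpb, Cebpg, Cebpd and Cebpe, of 21755 protein-coding genes annotated on 20 chromosomes (GENCODE vM21, mm10). For each member, peaks were collected that lay within 1 kb of any annotated transcription start site (TSS), over the gene, or up to 100 kb beyond either of its ends. This took in 100 of 36364 peaks in the Active Motif library, 85 of 56175 in Cell Signaling replicate 1 and 73 of 49139 in Cell Signaling replicate 2. Cebpa and Cebpg lie 62720 bp apart on chromosome 7, so their windows share 137281 bp and the 5 windows join into 4 stretches.

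The AMs came from the airways of 9-wk-old wild-type C57BL/6J mice by bronchoalveolar lavage and were fixed and sorted by flow cytometry. Acetylated chromatin was recovered by HT-ChIPmentation, in which a transposase adds the sequencing adapters to the chromatin while it is bound to the antibody. An anti-H3K27ac antibody from Active Motif gave 1 library and another from Cell Signaling gave 2, and 3 input libraries without antibody entered only through peak calling. All cells were untreated and of the same genotype, so the comparisons run between genes and between libraries, and no test between groups of mice was possible. The sources used here do not say whether libraries came from separate or pooled mice, and spread between them may be technical.

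C/EBP proteins are basic leucine zipper (bZIP) factors that bind DNA as dimers at sites built around TTGC and its complement GCAA. C/EBPα drives myeloid commitment, C/EBPβ acts in macrophages and in their response to inflammatory signals, C/EBPδ is induced in acute inflammation and C/EBPε directs late granulocyte maturation, while C/EBPγ lacks a strong activation domain and is found mainly in heterodimers. H3K27ac marks nucleosomes at active promoters and enhancers, so a peak here reports a chromatin state and not the amount of RNA or protein.

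The promoters that carry the acetylation described below are shown from 250 bases before to 50 bases after the RefSeq start (GRCm38.p6), for the 3 members held by the promoter table used here. Capitals mark matches on either strand to 10 searched strings: the C/EBP site TTGCNNAA and its palindrome TTGCGCAA, the cAMP response element (CRE) TGACGTCA, the PU.1 core AGGAAGT, the E-box CACGTG, the TATA box TATAAA, the GC box GGGCGG and the CCAAT box, together with a C/EBP half-site TTGCG and a CRE half-site TGACG that were added after the sequences had been seen. Neighbouring matches can overlap, as the first pair of GC boxes in Cebpb does.
Cebpa promoter, chr7:35119043-35119342, plus strand: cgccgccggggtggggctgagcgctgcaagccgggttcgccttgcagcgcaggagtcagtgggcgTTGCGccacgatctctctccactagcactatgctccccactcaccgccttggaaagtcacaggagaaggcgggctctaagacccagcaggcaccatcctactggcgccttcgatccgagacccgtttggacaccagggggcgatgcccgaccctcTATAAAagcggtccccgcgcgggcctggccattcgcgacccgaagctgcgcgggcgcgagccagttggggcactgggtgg
Cebpb promoter, chr2:167688665-167688964, plus strand: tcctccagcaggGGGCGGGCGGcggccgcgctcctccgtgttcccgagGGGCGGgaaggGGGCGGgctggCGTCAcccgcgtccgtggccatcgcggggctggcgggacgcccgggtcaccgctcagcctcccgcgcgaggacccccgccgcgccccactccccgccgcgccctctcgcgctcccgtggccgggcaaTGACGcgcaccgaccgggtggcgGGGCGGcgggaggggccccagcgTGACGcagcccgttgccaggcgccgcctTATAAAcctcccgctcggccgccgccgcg
Cebpg promoter, chr7:35056517-35056816, minus strand: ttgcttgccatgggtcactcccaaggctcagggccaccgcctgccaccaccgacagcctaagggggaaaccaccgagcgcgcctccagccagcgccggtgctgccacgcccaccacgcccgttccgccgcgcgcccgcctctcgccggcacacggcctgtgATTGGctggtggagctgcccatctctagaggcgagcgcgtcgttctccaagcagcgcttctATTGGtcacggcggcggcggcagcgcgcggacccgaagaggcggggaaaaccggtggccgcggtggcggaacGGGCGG

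The Cebpa promoter held a TATA box at position −30 from the start, a string found in 13.6% of 32851 promoters of this length, and a C/EBP half-site at −185, found in 17.4%. The Cebpb promoter was the richest in GC boxes, with 5 on its own strand, and 35.7% of all promoters held at least 1. It also held 3 CRE half-sites, at −180, −53 and −7 (20.8% of all promoters held any), and TATAAA at 21, just past the annotated start. The Cebpg promoter held a CCAAT box on the opposite strand at −89 and another at −28 (37.4% of promoters) and a GC box at 44. None of the 3 held the whole C/EBP site, which 10.8% of promoters had, nor its palindrome (0.183%), the CRE (1.79%), the PU.1 core (9.35%) or the E-box (7.15%). These are matches of letters only, and a string that is absent from this window says nothing about binding. All 3 were CpG-rich, with 29 CpG dinucleotides in Cebpa, 50 in Cebpb and 38 in Cebpg, against a median of 7 over all promoters.

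Distal regions are acetylated regions that overlap no protein-coding promoter. The distal region that was strongest in Cell Signaling replicate 1 is shown for the shared Cebpa and Cebpg neighbourhood, for Cebpb and for Cebpe, as 300 bases around the summit in that library (GRCm38), marked in the same way. The Cebpb region holds the start of a lincRNA, Gm14321.
Cebpa and Cebpg, intron of Pepd, chr7:35026852-35027151, plus strand: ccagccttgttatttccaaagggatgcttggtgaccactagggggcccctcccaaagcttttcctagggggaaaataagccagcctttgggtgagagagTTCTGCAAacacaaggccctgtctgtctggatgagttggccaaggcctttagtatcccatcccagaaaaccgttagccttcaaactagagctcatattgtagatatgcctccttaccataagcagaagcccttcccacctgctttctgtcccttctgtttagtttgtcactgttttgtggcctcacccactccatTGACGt
Cebpb, intergenic, chr2:167776984-167777283, plus strand: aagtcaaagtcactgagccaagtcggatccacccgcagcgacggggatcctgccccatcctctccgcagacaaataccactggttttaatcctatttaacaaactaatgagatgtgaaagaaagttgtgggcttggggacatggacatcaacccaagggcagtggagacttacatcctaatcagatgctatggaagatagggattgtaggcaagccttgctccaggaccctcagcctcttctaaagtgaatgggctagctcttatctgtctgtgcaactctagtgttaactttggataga
Cebpe, intron of Slc7a8, chr14:54754184-54754483, plus strand: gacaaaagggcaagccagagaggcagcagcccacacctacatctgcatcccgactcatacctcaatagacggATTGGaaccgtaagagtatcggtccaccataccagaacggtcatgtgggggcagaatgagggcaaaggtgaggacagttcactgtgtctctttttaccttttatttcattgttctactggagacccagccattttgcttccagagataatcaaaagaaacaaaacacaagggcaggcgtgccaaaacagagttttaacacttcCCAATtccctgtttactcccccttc

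The Pepd-intron sequence held a C/EBP site on the minus strand, at −51 from its summit, and a CRE half-site at 144. The Cebpb sequence held none of the 10 strings, and the Cebpe sequence held CCAAT at −78 (minus strand) and at 125. Among all 18202 distal regions seen in both Cell Signaling replicates, 16.3% had a C/EBP site and 33% had CCAAT in the same 300 bases. Near the members, a C/EBP site was found in 2 of 11 distal regions at Cebpa, 2 of 10 at Cebpb, 2 of 12 at Cebpg, 1 of 2 at Cebpd and 0 of 3 at Cebpe. The regions of Cebpa and Cebpg overlap almost wholly, so those counts are not separate.

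Fold values in this text are the authors' fold enrichment over control at the peak summit, and q values are theirs too. A promoter peak is any peak overlapping the 1 kb either side of a TSS. Of the 5 members, 4 had a promoter peak in every library and Cebpe had none in any. Of all 21755 genes, 41.9% had such a peak with the Active Motif antibody, 49% in Cell Signaling replicate 1, 50% in Cell Signaling replicate 2, 47.6% in both Cell Signaling replicates and 41.8% in all 3 libraries. With 5 genes the family's count of 4 is given beside that share and is not tested against it.

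Cebpg, which encodes the dimer partner C/EBPγ, had the strongest promoter of the family in each library. Its promoter fold was 32.4 in the Active Motif library, 58.0 in Cell Signaling replicate 1 and 46.5 in Cell Signaling replicate 2, with −log10 q of 95.1, 231 and 147. By q, that placed it above 96.9%, 95.9% and 91.5% of the genes that had a promoter peak in the same library. A peak of 6439, 7148 and 7950 bp reached all 4 of its TSSs, 3 of which lie inside the gene, and the starts of 3 non-coding transcripts (Gm44836, Gm45094 and Gm45095) lay under it or within 1 kb.

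Cebpa, the gene of the myeloid commitment factor, followed at a promoter fold of 26, 46.1 and 39.2, with −log10 q of 70.1, 171 and 117. It stood above 91.1%, 89.2% and 77.8% of genes with a promoter peak. The Active Motif library split the promoter into a peak of 1696 bp upstream of the start and a weaker one of 2460 bp (fold 8.83) over the gene, while 1 peak covered both in each Cell Signaling library, of 6370 and 8574 bp. An antisense transcript, Gm45091, starts 0.3 kb inside the gene under the same peaks.

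Cebpb, the inflammatory macrophage factor, had a promoter fold of 25.5, 21.4 and 31.1 and −log10 q of 85.0, 131 and 114. By q it stood above 95.2%, 80.6% and 75.6% of genes with a promoter peak, but by fold only above 91.8%, 54.2% and 59.7%. Its promoter peak was the widest in the family at 8010, 13469 and 13490 bp, which gave ranks of 69, 57 and 149 by width among all peaks of each library. The peak reached from 3.6 kb upstream to 9.9 kb downstream of the start in the Cell Signaling libraries. It also covered an annotated start of Tmem189 0.9 kb into Cebpb on the opposite strand and the start of the lincRNA A530013C23Rik at 2.3 kb, and these data cannot divide it between the 3 genes.

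Cebpd, the acute-phase member, had a promoter fold of 9.8 in the Active Motif library, 26.5 in Cell Signaling replicate 1 and 39.2 in Cell Signaling replicate 2, with −log10 q of 20.3, 82.0 and 117. It was thus the weakest acetylated member in the Active Motif library and level with Cebpa in Cell Signaling replicate 2, where both had the same fold. By q it stood above 47.8%, 63.9% and 77.8% of genes with a promoter peak. The Active Motif library gave it peaks of 2229 and 526 bp, and the Cell Signaling libraries gave 1 peak each of 4757 and 5051 bp.

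**Figure D1:**
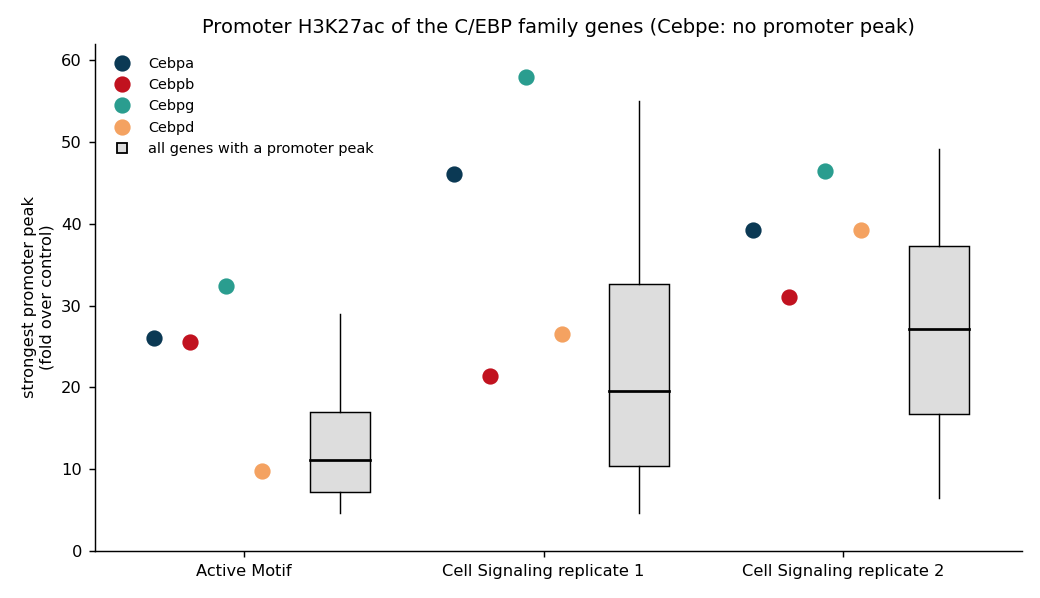
Fold over control of the strongest promoter peak (y axis) of Cebpa, Cebpb, Cebpg and Cebpd (coloured points) in the 3 libraries (x axis); grey boxes with whiskers give the middle 50% and the middle 90% of all genes with a promoter peak, with the median as a line. Cebpg was highest in all 3 libraries at 32.4, 58.0 and 46.5, and Cebpd lay under the Active Motif median of 11.1 at 9.8.

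The order of the 4 promoters was therefore not the same in every library, beyond Cebpg being first. Cebpa and Cebpb were nearly level in the Active Motif library (26 and 25.5), Cebpb was lowest by fold in both Cell Signaling replicates, and Cebpd was last in the Active Motif library but tied with Cebpa in Cell Signaling replicate 2. Over the Cell Signaling replicates the promoter fold averaged 52.3 ± 8.15 for Cebpg, 42.7 ± 4.91 for Cebpa, 32.9 ± 8.95 for Cebpd and 26.2 ± 6.86 for Cebpb (SD, n = 2 each). The replicates were not scaled to each other, and the median over genes with a promoter peak was 19.6 in replicate 1 and 27.2 in replicate 2. Each SD therefore includes that difference. The mean percentile by q among such genes put Cebpb over Cebpd (78.1 and 70.8). By −log10 q Cebpb stood over Cebpd in Cell Signaling replicate 1 (131 and 82.0) and just under it in replicate 2 (114 and 117). The replicate values of Cebpg fold lay above those of Cebpa, those of Cebpa met those of Cebpd at 39.2, and those of Cebpd and Cebpb overlapped.

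The libraries also weighed the members differently. For genes with a promoter peak in all 3 libraries (n = 9093), the median ratio of promoter fold was 1.94 for Cell Signaling replicate 1 over Active Motif. The ratio was 0.839 for Cebpb, under all but 0.841% of those genes, against 1.78 for Cebpa, 1.79 for Cebpg and 2.71 for Cebpd. For Cell Signaling replicate 2 over Active Motif the median was 2.51 and the values were 1.22 for Cebpb, 1.51 for Cebpa, 1.44 for Cebpg and 4 for Cebpd. Among those genes, the ratio to Active Motif was low for Cebpb and high for Cebpd with both Cell Signaling libraries. For Cebpa and Cebpg the ratio was low with replicate 2 (percentiles of 6.13 and 4.48) and nearer the middle with replicate 1 (38.2 and 39). The libraries were not scaled to each other and differ in antibody and in peak width, and the part of each was not tested. The study's methods also describe different sonicators for H3K27ac samples. Which library had which is not given, so sonication cannot be told apart from antibody here.

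Cebpe, the granulocyte factor, had no peak within 1 kb of its TSS or over its 1815 bp in any library. The peak nearest to its 5′ end lay 24.6 kb away in the Active Motif library, 24.2 kb in Cell Signaling replicate 1 and 2.2 kb in Cell Signaling replicate 2. A TSS window of 3 kb took in that last peak, which made the count 5 members in Cell Signaling replicate 2 and left it at 4 in the other libraries. An enhancer known from mouse granulocytes lies about 6 kb from Cebpe, and no library had a peak within 1 kb of either position 6 kb from its 5′ end. The position of the myeloid enhancer known 37 kb downstream of mouse Cebpa had no peak within 1 kb in the Active Motif library or Cell Signaling replicate 1, with the nearest 28.4 and 28.3 kb away. Cell Signaling replicate 2 had 1 there, at fold 3.63. Peak lists do not hold signal below the caller's threshold, so these places are listed without a peak and are not shown to be free of the mark.

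**Figure D2:**
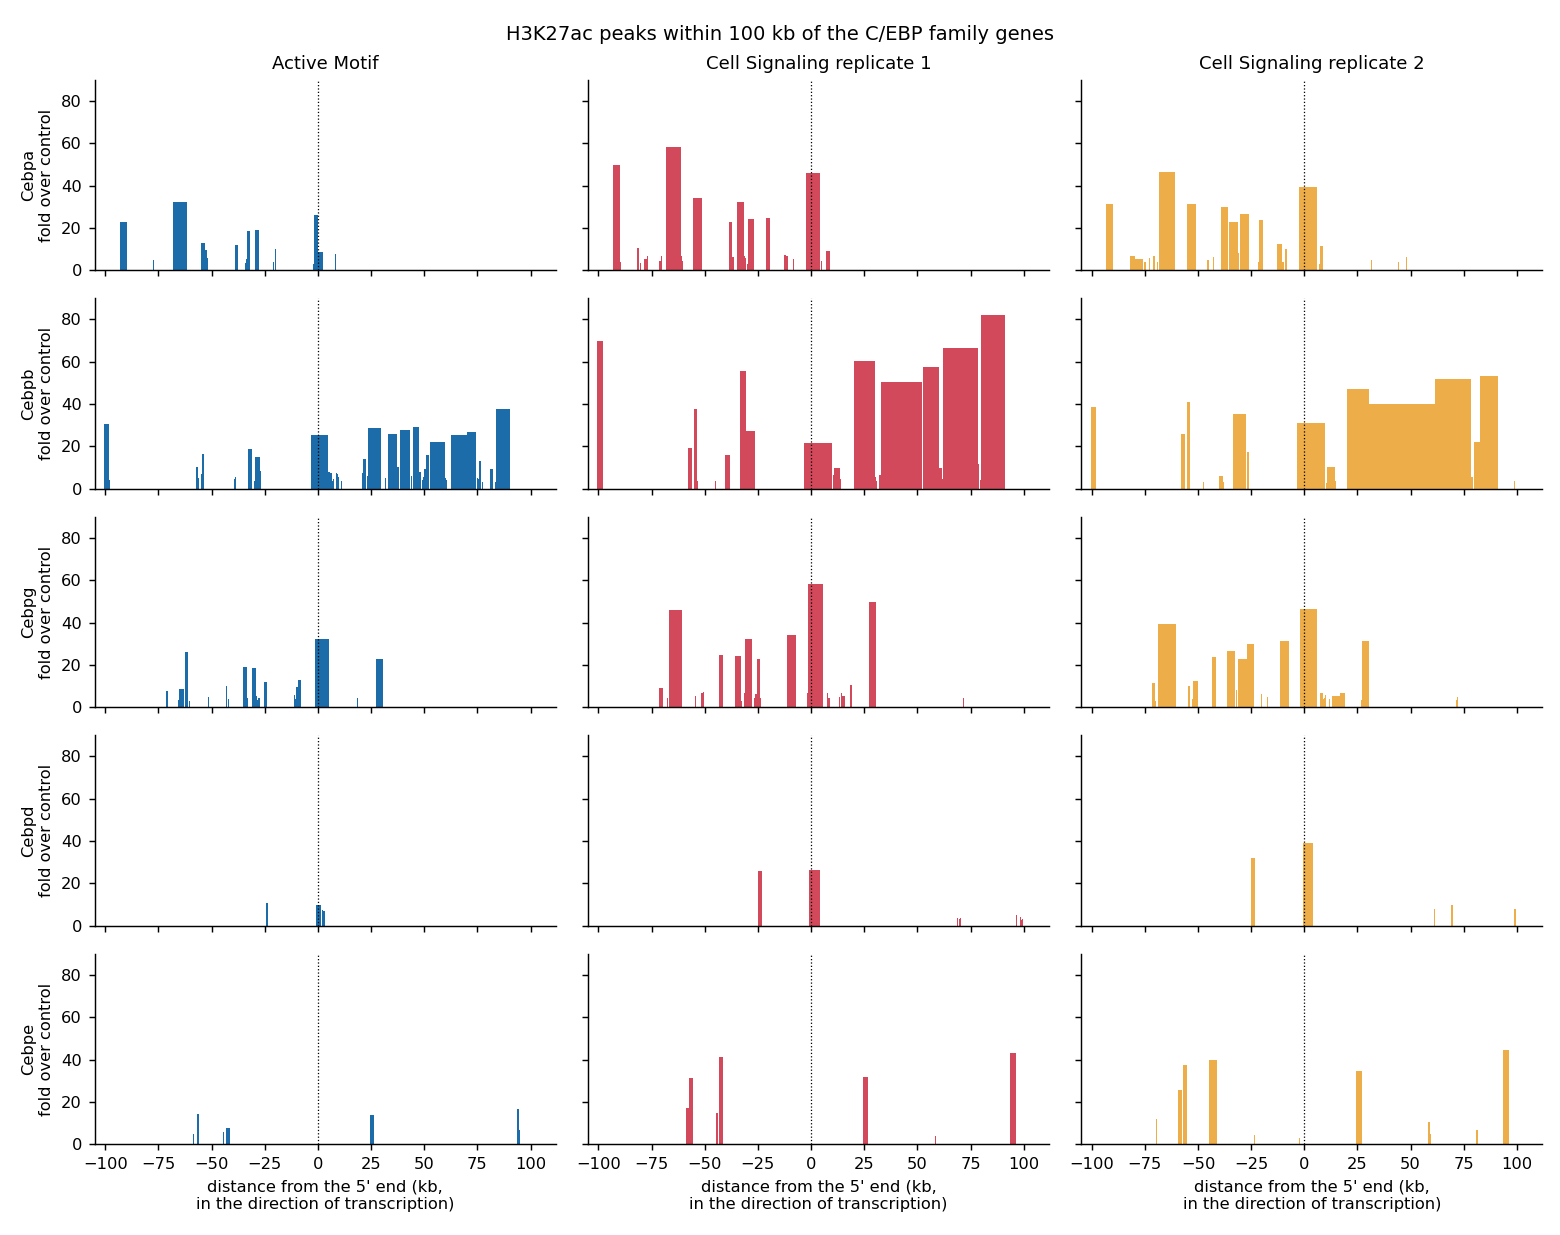
Peaks within 100 kb of each member (rows) in each library (columns), as bars placed by distance from the 5′ end in kb along the direction of transcription (x axis, drawn at least 0.25 kb wide) with the fold over control as height (y axis). Cebpb had near-continuous peaks from 20.1 to 91.0 kb downstream in the Cell Signaling libraries, Cebpa and Cebpg share the peaks between them, and Cebpd and Cebpe had few.

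The acetylated neighbourhoods also differed between the members. Peaks covered 75549, 99240 and 102793 bp of the 201504 bp around Cebpb in the Active Motif library, Cell Signaling replicate 1 and Cell Signaling replicate 2, or 37.5%, 49.2% and 51% of the window. This gave ranks of 5, 6 and 9 among all 21755 protein-coding genes, whose medians were 2890, 5622 and 7364 bp. The mark was one-sided, with 60716, 79516 and 82630 bp in the 100 kb downstream of the gene and 13329, 18220 and 18659 bp in the 100 kb upstream. No other protein-coding gene starts in that downstream stretch. It holds the starts of 3 lincRNAs, A530013C23Rik at 2.3 kb, Gm14321 at 88.6 kb and 9230111E07Rik at 93.1 kb.

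Peaks around Cebpa covered 25161, 41810 and 54838 bp (ranks 458, 314 and 297), and the side was the reverse of that at Cebpb. The upstream 100 kb, which includes Cebpg and the end of Pepd, held 21895, 35449 and 46395 bp, and the downstream 100 kb held 806, 3725 and 5807 bp. For Cebpg the window held almost the same bases, 25161, 42038 and 54933 bp. Cebpd had 4632, 8525 and 8668 bp, above 62%, 61.5% and 54.2% of genes, and Cebpe had 6578, 12318 and 16085 bp, above 71.3%, 73% and 72.9%. Cebpe, with no promoter peak, thus had more acetylated bases around it than Cebpd in every library with 100 kb windows, although none of them lay over Cebpe itself. The order turned with the window. With 50 kb windows Cebpd stood above 77.2% of genes and Cebpe above 72.1% in the Active Motif library (67.8 and 67.9 in the mean of the Cell Signaling replicates), and with windows that ended midway to the next protein-coding gene it was 91.8% and 26.5% (86.6 and 32.3).

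**Figure D3:**
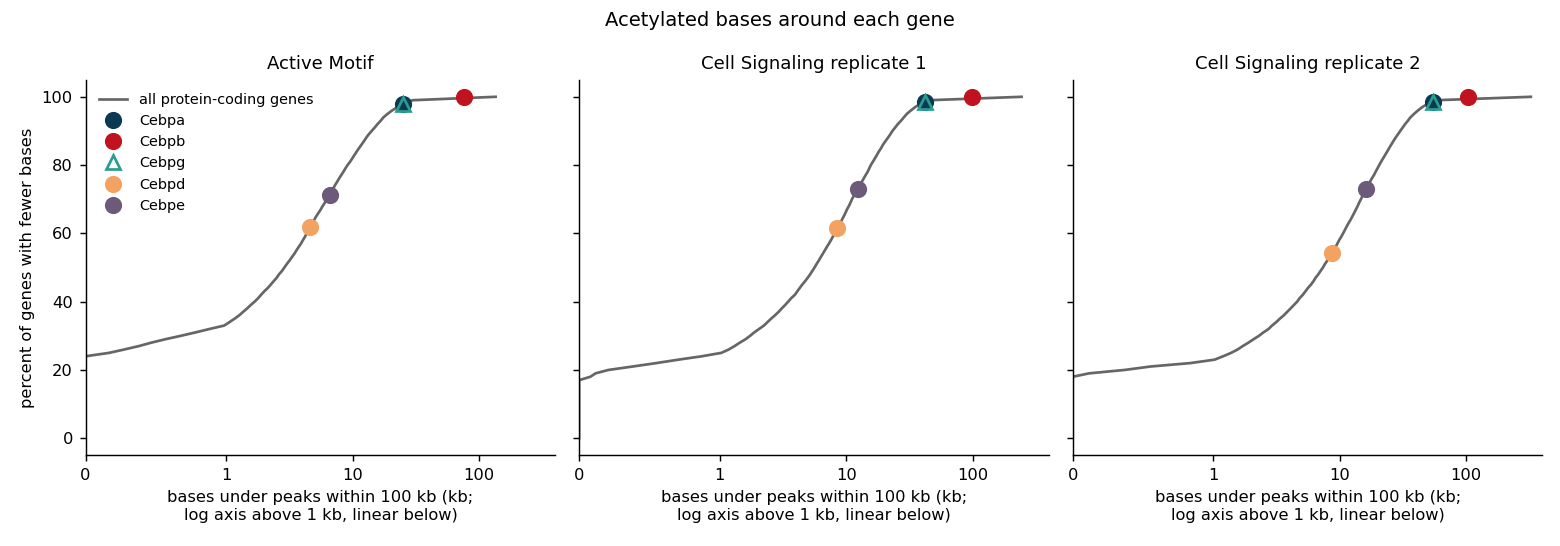
Bases under peaks within 100 kb of each gene (x axis, kb, log scale above 1 kb and linear below) against the percentage of protein-coding genes with fewer (y axis), per library; the line joins whole percentiles of all 21755 genes and the symbols are the members. Cebpb stood at 75549, 99240 and 102793 bp near the top of each curve, with Cebpa and Cebpg next and Cebpd lowest.

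The number of peaks did not follow the bases. Cebpb had 61 peaks in the Active Motif library, 26 in Cell Signaling replicate 1 and 20 in Cell Signaling replicate 2, the reverse order of its covered bases, with median peak widths of 315, 1348 and 1945 bp. Cebpa had 25, 38 and 32 peaks, Cebpg 25, 40 and 32, Cebpd 5, 11 and 5, and Cebpe 9, 8 and 13. Covered bases and merged regions are therefore used here in place of peak counts.

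Shared regions were stretches formed by overlapping peaks of the Cell Signaling replicates with at least 1 peak of each. The windows held 39 of 29277 such regions, 12 overlapping a protein-coding promoter and 27 distal, and 30 of the 39 (76.9%) contained an Active Motif peak, against 61.5% of all shared regions. The share over all shared regions was 80.9% at promoters and 49.7% at distal regions. Of the members' 27 distal regions, 19 had an Active Motif peak. The members' shared regions were wider, at a median of 2673 bp against 1385 bp over all shared regions. The part of width in these shares was not tested. Every Active Motif peak in the windows lay in a shared region. So did 98.9% of all 36364 Active Motif peaks. Of the Cell Signaling peaks in the windows, 12 of 85 (14.1%) of replicate 1 and 30 of 73 (41.1%) of replicate 2 lay outside, against 17.9% and 38.1% of all peaks of those libraries. By member, the peaks outside numbered 1 of 38 and 15 of 32 near Cebpa, 2 of 40 and 14 of 32 near Cebpg, 5 of 26 and 5 of 20 near Cebpb, 5 of 11 and 1 of 5 near Cebpd, and 0 of 8 and 7 of 13 near Cebpe.

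Cebpb had 13 shared regions, 11 of them with an Active Motif peak. The widest ran over 30795 bp of intergenic sequence at chr2:167719576-167750370, 30.7 to 61.5 kb downstream of the gene's 5′ end, and had rank 10 by width of all shared regions. It held 15 peaks in the Active Motif library, 5 in Cell Signaling replicate 1 and 1 in Cell Signaling replicate 2, with top folds of 29.1, 57.7 and 39.9. The strongest lay beyond it at chr2:167768685-167779910, centred 85.4 kb downstream, with top folds of 37.7, 82.3 and 53.5, and its summit sequence is shown above. Regions centred at 70.0 kb (26.7, 66.5 and 52.0) and 25.3 kb (28.9, 60.3 and 47.3) completed this downstream block. All 4 exceeded the Cebpb promoter's own fold in each library. Upstream, the region centred at −99.2 kb (30.7, 69.6 and 38.8) straddled the edge of the window, and the regions at −57.0 and −29.7 kb lay at promoters of Ube2v1, Gm20431 and Tmem189. Distal regions also stood on that side at −54.4 kb (16.3, 37.7 and 41.2) and −39.3 kb (5.78, 15.8 and 5.92).

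Cebpa and Cebpg had 15 and 16 shared regions, of which 15 were the same. Between the genes stood 7 distal regions, 6 of them with an Active Motif peak. In distance from the Cebpa 5′ end, the region at −53.3 kb held the start of the lincRNA Gm45096 and was centred in its intron. That region had top folds of 12.7, 34.1 and 31.1 and was the strongest of the 7 in both Cell Signaling libraries. In the Active Motif library the strongest was the intergenic region at −28.3 kb (19.2, 24.2 and 26.7), next to the one at −33.1 kb, where the lincRNA Gm35611 starts (18.6, 32.3 and 23.0). The region at −37.5 kb reached 12, 22.7 and 29.8. Outside this stretch, the strongest distal region of the neighbourhood in the Active Motif library and Cell Signaling replicate 1 was the Pepd intron at chr7:35026033-35029446, shown above, centred at −91.6 kb from the 5′ end of Cebpa and at 28.8 kb from that of Cebpg, at 22.7, 49.6 and 31.1, level in Cell Signaling replicate 2 with the region at −53.3 kb. Pepd encodes a peptidase, and its 5′ end lies outside the windows. Downstream of Cebpa, the lone shared region was at 7.9 kb (7.57, 8.89 and 11.3), and the promoters of Slc7a10 and Lrp3 farther on had no peak in any library.

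Cebpd had 4 shared regions and Cebpe 6. Besides its own promoter, Cebpd had a region at the promoter of Mzt2, 24.1 kb upstream (10.7, 25.8 and 32.2), and a pair in introns of Spidr, at 69.5 and 99.1 kb, with no Active Motif peak and folds of 3.2 and 3.25 in Cell Signaling replicate 1 and 9.64 and 7.81 in Cell Signaling replicate 2. Cebpd was the only member with no Active Motif peak in any of its distal regions. The Cebpe window held the promoters of Psmb5 (16.7, 43.1 and 44.7), a proteasome subunit, and of Acin1 and 1700123O20Rik (13.6, 31.9 and 34.6), an Acin1 promoter region without an Active Motif peak, and 3 regions in introns of the amino acid transporter gene Slc7a8. Of the 3, the one centred 43.0 kb upstream of Cebpe at chr14:54753300-54757137 reached 7.84, 41.1 and 39.9 and was the strongest in the Cell Signaling libraries, while the one at −56.4 kb reached 14.1, 31.1 and 37.3 and was the strongest in the Active Motif library. The annotated promoter of Slc7a8 had a peak in Cell Signaling replicate 2 (fold 12) and in neither of the other libraries.

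**Figure D4:**
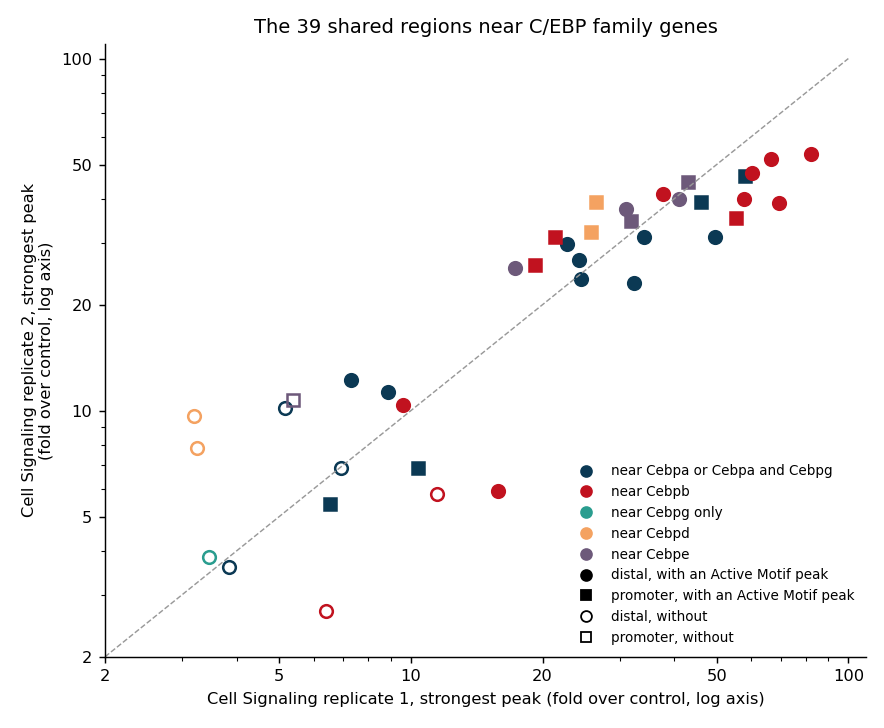
Top fold of each of the 39 shared regions in Cell Signaling replicate 1 (x axis, log scale) and Cell Signaling replicate 2 (y axis, log scale), coloured by the member nearby; squares are promoter regions, circles distal ones, filled with and open without an Active Motif peak, and the dashed line marks equal folds. The 9 open symbols lie at folds of 3.2 to 11.5 in replicate 1 and 2.7 to 10.7 in replicate 2.

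The 9 shared regions without an Active Motif peak were small and weak, at 257 to 1217 bp and folds of 3.2 to 11.5 in Cell Signaling replicate 1 and 2.7 to 10.7 in Cell Signaling replicate 2. In the 30 regions that had peaks of all 3 libraries, the fold in Cell Signaling replicate 1 was a median 2.2 times that in the Active Motif library, and 29 of 30 exceeded it. The exception was the Cebpb promoter at 0.839. Over all 18015 such regions, the median was 1.9 and 95.2% exceeded it. Between the Cell Signaling replicates, 19 of the 39 member regions had the higher fold in replicate 2, with a median ratio of 0.996, against 77% and 1.32 over all 29277 regions.

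Other genes of the C/EBP pathway were read at their promoters with the same rule, over both Cell Signaling replicates, where 47.6% of all genes had a peak. Of 11 bZIP relatives and partners, 9 had a peak in both, among them Ddit3, which encodes the inhibitory relative CHOP (31.9, 40.7 and 41.9), Atf4, a stress factor that dimerises with C/EBP proteins (39.1, 65.0 and 53.1), and Nfil3 (31.0, 73.0 and 52.4). Batf3 had a peak in Cell Signaling replicate 2 alone (fold 10) and Hlf had none. Of 8 regulators of C/EBP proteins, 6 had a peak in both. Trib1, which brings C/EBPα to the ubiquitin ligase COP1 for degradation, reached 26, 53.0 and 24.6, and Cop1 itself 14.1, 27.3 and 34.4. Trib2 and the granulocyte repressor gene Gfi1 had no peak in any library, and Trib3 had none in the Active Motif library.

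Of 8 myeloid factors that work with C/EBP proteins, 7 had a peak in both replicates, including the PU.1 gene Spi1 (30.0, 55.4 and 54.4), Klf4 (37.1, 59.6 and 51.5) and Pparg (31.9, 65.7 and 50.4). Myb, a factor of early progenitors, had none. Of 15 known macrophage targets, 11 had a peak in both, such as Csf2ra, a chain of the GM-CSF receptor (31.4, 65.0 and 40.3), Cd14 (30.2, 60.7 and 46.9) and Lyz2 (14.1, 40.4 and 40.3). The inflammatory targets were divided. Tnf (33.2, 44.6 and 47.8) and Il1b (6.15, 41.9 and 20.3) had a peak in every library, Il6 had one in the Cell Signaling libraries only (6.92 and 11.5), and Nos2, Ptgs2, Saa3 and Il10 had none in any. Of 10 neutrophil granule genes, among them known C/EBPε targets, 2 had a peak in both, Ltf (5.4, 14.0 and 3.93) and Mmp8 (4.23 and 9.83 in the Cell Signaling libraries). The study also counts Mmp8 among the core genes of AMs, so its peak need not be a granulocyte trait. Mpo, Elane, Prtn3, Ctsg, Camp, Ngp, Lcn2 and Mmp9 had none. The low count stood beside the unmarked promoter of Cebpe, and no relation between them was tested.

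**Figure D5:**
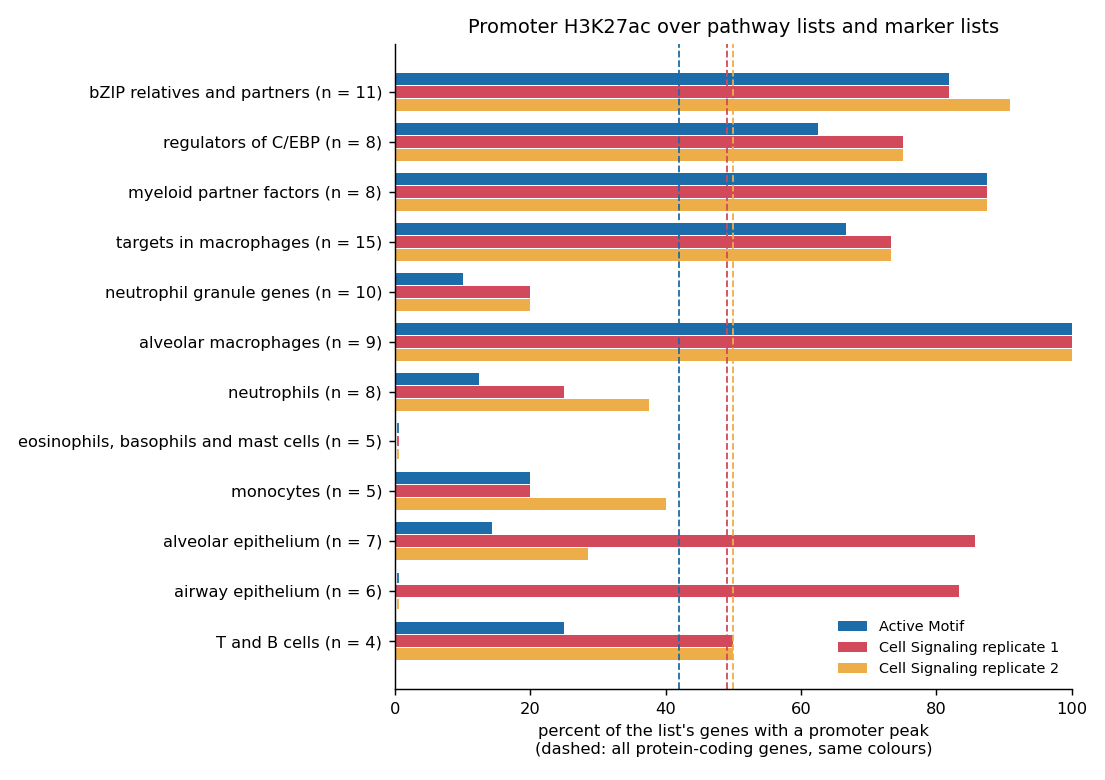
Percentage of each list's genes with a promoter peak (x axis) in the 3 libraries (bars), for 5 pathway lists and 7 cell type marker lists (y axis, with the number of genes); dashed lines give all protein-coding genes at 41.9%, 49% and 50%. Myeloid partners had 7 of 8 genes with a peak in every library, and epithelial markers had peaks mainly in Cell Signaling replicate 1.

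The label of the cells was checked against marker genes read with the same promoter rule. All 9 AM markers, including Siglecf, Marco and Fabp4, had a promoter peak in every library, while 0 of 5 markers of eosinophils, basophils and mast cells did in any, and of 8 neutrophil markers 1 did in the Active Motif library, 2 in Cell Signaling replicate 1 and 3 in Cell Signaling replicate 2. These were Csf3r (8.83, 8.46 and 27), which is also among the macrophage targets, S100a8 (8.46 and 18.3 in the Cell Signaling libraries) and Cxcr2 (7.44 in replicate 2), and the defining markers Ly6g, S100a9, Retnlg, Mpo and Elane had none. Among the monocyte markers, Vcan had a peak in every library (10.2, 20 and 22.9) and Ccr2 in Cell Signaling replicate 2 (6.71), with Ly6c2 and F13a1 at none. Of 4 T and B cell markers, Cd3d had a peak in every library (5.12, 16.1 and 17.3) and Ms4a1 in the Cell Signaling libraries (4.18 and 41.2), with Cd3e and Cd79a at none. The part of such cells in the members' values was not tested. Epithelial markers moved with 1 library. Of 7 alveolar epithelial markers, 1 had a peak in the Active Motif library, 6 in Cell Signaling replicate 1 and 2 in Cell Signaling replicate 2. Of 6 airway markers the counts were 0, 5 and 0. Folds in replicate 1 were 4.23 to 8.07, with Nkx2-1 at 6.92, Sftpd at 4.23 and Scgb1a1 at 6.53. Sftpc and Foxj1 had no peak in any library. C/EBPα and C/EBPδ are also active in lung epithelium. The members' promoter folds in the same library were 21.4 to 58.0, and their peaks were present in both other libraries, but what part of the Cell Signaling replicate 1 values came from other cells was not tested.

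Likeness was measured as the distance between genes over 6 percentiles, promoter strength by q and bases within 100 kb in each library. Both were ranked here among all 21755 genes, whereas the promoter strength percentiles above were among genes with a promoter peak. Genes without a promoter peak were tied in this ranking, at percentiles of 29.1, 25.5 and 25. Among the members, Cebpa and Cebpb were closest, at 5.46 percentage points, ahead of Cebpa and Cebpg at 8, and Cebpe was 101 to 131 from the rest. Cebpa and Cebpb were close in percentiles although they had 41810 and 99240 acetylated bases in Cell Signaling replicate 1. The windows of Cebpa and Cebpg overlap, so their base percentiles are alike by position and the distance of 8 comes from the promoters. Outside the windows, the genes most like Cebpa were Nab2 and Nemp1 (1.69 each, a neighbouring pair with the same values), those most like Cebpg were Arhgap30 and Lmna (1.61 each), and those most like Cebpd were Tmem127 (6.1) and Atp8a1 (6.11). For Cebpb they were Foxn3 (2.96) and Clec1b (3.27), although Foxn3 had 45227 acetylated bases in Cell Signaling replicate 1 and Cebpb 99240, since percentiles compress the top of the range. For Cebpe, Mmp14 (0.264) and Spire2 (0.367) were closest, and all 3 lacked a promoter peak.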

How the data were processed

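H3K27ac HT-ChIPmentation libraries of sorted AMs were processed by the authors with bcl2fastq, cutadapt, Bowtie2 to mm10, SAMtools and MACS3 with input as control at a q value of 0.05, as the submitters' notes and the study's methods give it. The deposited peak lists hold, per peak, the fold over control (a ratio), −log10 of the p-value and q-value by the authors, a summit and a score, which was not used. Each library was called separately, and read depth was not used here. The equal-peak-number alternative takes its place in part.

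Peaks on 20 chromosomes were joined to GENCODE vM21 (1 bp overlap) with Python 3.11.15, numpy 2.4.6 and pandas 2.3.3. A gene's promoter strength was the largest value of its promoter peaks, and percentiles count ties at their middle. Overlap functions were tested on simulated data. Sequences were read from RefSeq GRCm38.p6. All 5 members, 3 top distal regions per member, neighbouring genes, exceptions to a list's majority and the 2 most alike genes are named. Lists of 92 symbols all matched. Members and lists were chosen with earlier results of these data known.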

Additional observations from a re-analysis of the deposited data

How the results depend on the processing

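The count of 4 members with a promoter peak held under every promoter window, TSS choice and peak threshold tried, except for 5 in Cell Signaling replicate 2 with 3 kb windows. The 39 shared regions became 20 when windows stopped at the middle of the way to the next protein-coding gene, and without either Cell Signaling replicate the single-library peaks numbered 73 to 85. The 76.9% of shared regions with an Active Motif peak became 88.2% with equal numbers of peaks and 96.3% with 50% reciprocal overlap. Of the single-library peaks, 41.2% in Cell Signaling replicate 1 and 43.8% in replicate 2 overlapped an Active Motif peak. The share over all regions was not recomputed under these alternatives, so these values have no background beside them. The half-site TTGCG, chosen after seeing the data, was in 1 member promoter.

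The window set the ranks of Cebpd and Cebpe by acetylated bases, as given above. Cebpb stayed at a percentile of 99.8 or higher under every window tried. Of 330 recomputed values, 226 stayed within the replicate spread or 1.5 times the count, and 104 moved beyond it. Of the 104, 50 fell under the 2 narrower windows (24 and 26). Part of the 226 was fixed in advance. A percentile from 1 Cell Signaling replicate always lies within the spread of the pair. The Active Motif list is the shortest, so equal peak numbers leave its own values unchanged. The 226 is therefore not a measure of stability. A weak peak near the caller's threshold can be missing for lack of depth, which peak lists do not show. No paired analysis was possible because each library carries the same condition and no test was run.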

Other observations

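Over the gene bodies, peaks covered all of Cebpb in every library. For Cebpa they covered 93.3% in the Active Motif library and 100% in both Cell Signaling replicates, and for Cebpd 78%, 100% and 100%. Cebpg, whose gene is longer at 10152 bp, was covered over 51.8%, 59.5% and 77.2%, mostly from its 5′ side. Cebpe was covered over 0% in each.

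Non-coding genes near the members differed in their starts. Besides those named above, the predicted miRNA gene Gm25033, between Cebpg and Cebpa, had a peak within 1 kb of its start in every library (12, 22.7 and 29.8), and the lincRNA Gm35665, 22.2 kb downstream of Cebpa, had none in any. Near Cebpb, the lincRNA 9230111E07Rik had peaks in Cell Signaling replicate 1 alone, at a top fold of 5.77, while Gm14321, in the strongest downstream region, reached 37.7, 82.3 and 53.5.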
